A study of Mus musculus with 2 samples.

Results

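Alternative macrophage activation genes are the genes that macrophages switch on when they receive interleukin 4 (IL-4) or interleukin 13 (IL-13). A set of 10 such genes was taken by gene name from a table of 54532 mouse genes, and all 10 were found. The 9 described here are Retnla, Chil3, Mrc1, Pdcd1lg2, Il4ra, Fn1, Tgm2, Egr2 and Mgl2, and counts are over the 10. RNA sequencing was used to ask how aortic macrophages differ between dyslipidemic mice with Phlegm-Dampness Retention (PDR) syndrome and those with Spleen and Kidney Yang Deficiency (SKYD) syndrome, both of which are diagnoses of traditional Chinese medicine. All mice are described as ApoE-/- on the C57BL/6J background and 6 weeks old. The paper does not state whether this age is that at the start of treatment or at sampling. Apoe encodes apolipoprotein E, a protein that clears lipoproteins from blood. PDR mice received a high-fat diet for 4 weeks. SKYD mice were given propylthiouracil, which blocks thyroid hormone synthesis, at 10 mg/kg per day for 4 weeks and then a high-fat diet for 2 weeks. Syndrome, drug, length of diet, length of treatment and any difference of age at sampling cannot be told apart between these groups. Aortic cells were sorted on F4/80 and CD11b, surface proteins that macrophages share with some other myeloid cells, and the sorted cells of 5 mice per group were pooled. Such a sort is meant to remove lymphocytes, fibroblasts, hepatocytes, endothelial cells, smooth muscle cells and red blood cells. It would also remove neutrophils, mast cells and basophils where they lack either protein. Each group thus had 1 library, and no difference given here has a replicate check.

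IL-4 and IL-13 bind receptors that contain the chain encoded by Il4ra, and the Janus kinases attached to these receptors phosphorylate the transcription factor STAT6. STAT6 then enters the nucleus and, with other factors such as EGR2, switches on genes for secreted lectins, endocytic receptors and matrix proteins. In the artery wall this state has been linked to the clearing of lipids and dead cells and to tissue repair, and the opposite state, classical activation, is driven by interferon gamma and bacterial products.

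The deposited values are FPKM, reads scaled to the length of the gene and to the size of the library, so that levels of genes of different length can be compared. FPKM multiplied by gene length fell on whole multiples of the value of 1 read, within 0.01 of a read, for 100% of the values above 0 in each library. These reads summed to 23086889 for PDR and 25427863 for SKYD. Folds are ratios of FPKM, and differences are log2(FPKM + 1) in PDR minus that in SKYD, so a negative difference means a higher level in SKYD; adding 1 shrinks the differences of genes near or below 1 FPKM. A gene was counted as past 2-fold, or more than 2-fold higher, only where its difference on this scale was above 1 or below -1, so a low gene can have a ratio of FPKM above 2 and not be counted. Intervals are exact 95% intervals of the read numbers, and they cover counting error only. Apoe, the gene described as knocked out, had 17336 reads in PDR and 3618 in SKYD. Since values are given per gene, the exons behind these reads are unknown, and the described genotype cannot be checked with them. As for the sorted proteins, the F4/80 gene Adgre1 was at 87.3 FPKM in PDR and 93.3 in SKYD, and the CD11b gene Itgam was at 8.84 and 14.4 FPKM.

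RefSeq promoter windows (GRCm38.p6) were found for 7 of the 10 genes, namely Retnla, Chil3, Mrc1, Pdcd1lg2, Il4ra, Egr2 and Mgl2, and none was found for Fn1 and Tgm2. Shown here are the windows of the genes that differed more than 2-fold between the libraries and that of Chil3, the most abundant of the 10 in PDR. STAT6 is known to bind TTCNNNNGAA, in which N is any base, and STAT proteins in general TTCNNNGAA. Each motif reads the same on both strands. The first is in 6.95% and the second in 8.30% of all 32851 windows, each of which holds 250 bases before and 50 bases after a gene's start. Some genes have several starts, and the 7 genes have 11 windows in all. TTCNNNNGAA occurs in 2 of the 11, those of Retnla and Pdcd1lg2, and TTCNNNGAA in 1, that of Chil3. The bases lie upstream of the gene in the deposited table, at chr16:48842359-48842550 on the plus strand for Retnla, chr11:70130107-70130328 on the plus strand for Mgl2, chr19:29410669-29410918 on the plus strand for Pdcd1lg2 and chr3:106167565-106167814 on the minus strand for Chil3. Capitals mark the matches, and Mgl2 has none.
Retnla: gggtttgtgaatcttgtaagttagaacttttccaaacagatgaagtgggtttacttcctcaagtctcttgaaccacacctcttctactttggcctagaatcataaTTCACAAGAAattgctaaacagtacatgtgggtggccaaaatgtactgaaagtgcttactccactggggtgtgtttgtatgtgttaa
Mgl2: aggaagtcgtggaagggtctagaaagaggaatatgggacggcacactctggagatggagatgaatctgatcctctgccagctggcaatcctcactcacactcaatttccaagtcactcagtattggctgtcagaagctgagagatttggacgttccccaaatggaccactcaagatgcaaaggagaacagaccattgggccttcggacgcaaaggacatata
Pdcd1lg2: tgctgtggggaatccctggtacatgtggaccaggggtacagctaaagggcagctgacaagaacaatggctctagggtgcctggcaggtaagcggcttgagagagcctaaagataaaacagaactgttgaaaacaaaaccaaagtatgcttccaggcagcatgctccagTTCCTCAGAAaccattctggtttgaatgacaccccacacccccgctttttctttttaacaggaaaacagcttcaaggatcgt
Chil3: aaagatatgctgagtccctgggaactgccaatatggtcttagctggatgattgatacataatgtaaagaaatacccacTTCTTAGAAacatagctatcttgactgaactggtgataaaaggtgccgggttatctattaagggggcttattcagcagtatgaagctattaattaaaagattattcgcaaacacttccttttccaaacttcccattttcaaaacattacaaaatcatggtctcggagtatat
The capitals start 145 bases before the RefSeq start of Retnla, 82 bases before that of Pdcd1lg2 and 172 bases before that of Chil3. Retnla was higher in SKYD and Pdcd1lg2 in PDR, so the genes that share TTCNNNNGAA had differences of opposite sign. A match of letters is a description of the sequence and not a site that was measured.

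More than 2-fold higher in SKYD were 3 of the 10 genes, against 6.91% of the 10399 genes whose FPKM averaged 1 or more over both libraries (the tested genes). These were Retnla, Fn1 and Mgl2. In the other direction, 1 of the 10, Pdcd1lg2, was more than 2-fold higher in PDR, against 7.38% of the tested genes. The median difference of the 10 was -0.40, beside -0.0035 over the tested genes. All 10 reached this limit, and 9 were at or above 1 FPKM in both libraries. Egr2 met the limit only through its SKYD level and so had to differ. The 10 genes did not move as a block, since 6 were higher in SKYD and 4 in PDR, or 5 and 5 when centred on macrophage markers. Under this centring on the macrophage marker list, whose own median was -0.61, the median over all tested genes became 0.61, and the shares past 2-fold were then 22.8% toward PDR and 3.26% toward SKYD. Relative to these markers 2 of the 10 genes, Retnla and Fn1, stood past 2-fold toward SKYD, and 3, among them Chil3 and Pdcd1lg2, toward PDR. Fewer cells of a type and less RNA per cell cannot be told apart in any of these values.

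**Figure D1:**
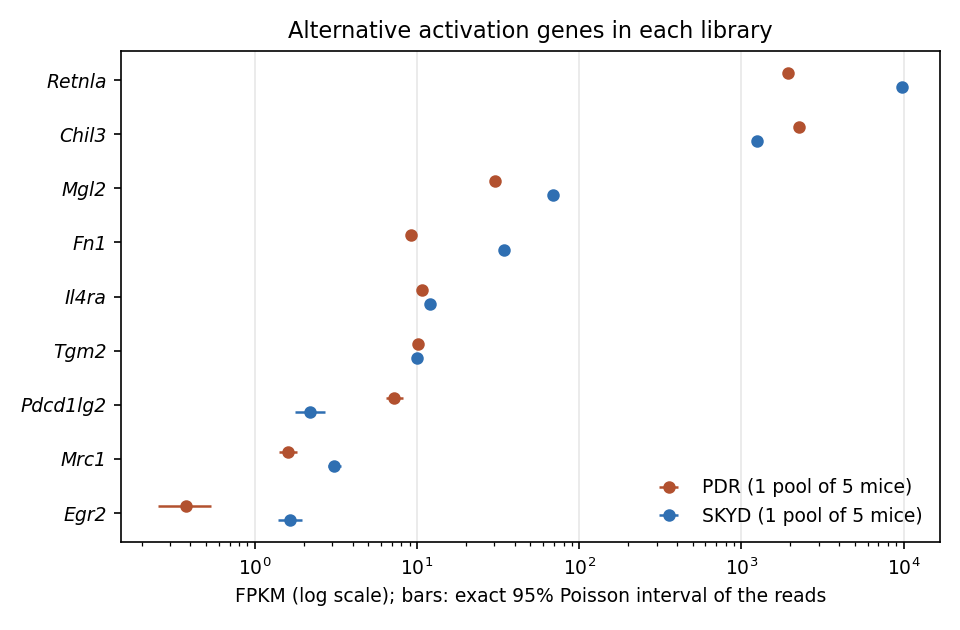
Level of each of the 9 genes in FPKM on a log axis, for PDR and SKYD, each a pool of 5 mice, with bars for the exact 95% Poisson interval of the reads. Retnla and Chil3 stand far above the others in both libraries, and Egr2 is below 1 FPKM in PDR.

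Il4, which encodes the cytokine IL-4, had 1 read in PDR and 49 in SKYD (1.598 FPKM), a ratio of 46.0 (7.89 to 1855) in favour of SKYD. Il13 had 0 reads in both libraries, which allows a share of up to 1.3e-05% of reads in PDR and 1.18e-05% in SKYD. Cells other than macrophages, among them T cells, mast cells and basophils, are the known sources of IL-4. T and NK cell markers summed to 337 FPKM in PDR and 1302 FPKM in SKYD, with 7 of 10 more than 2-fold higher in SKYD and 2 in PDR. Cd8b1, a chain of the CD8 receptor and the most abundant on the mean of both libraries, was at 39.7 FPKM in PDR and 535 FPKM in SKYD. The genes past 2-fold toward PDR were Nkg7, the highest of the list in PDR, at 143 and 50.6 FPKM, and the NK receptor gene Ncr1, at 11.2 and 2.49 FPKM. Mast cell and basophil markers summed to 30.8 FPKM in PDR and 30.1 FPKM in SKYD. Of the 5 tested, 2 passed 2-fold toward PDR and 1 toward SKYD, and Tpsb2 was at 0 in both. Cma1, toward PDR, met the limit only through its PDR level. The protease gene Prss34, the highest in PDR, was at 13.2 and 10.4 FPKM, and Cpa3, the highest in SKYD, was at 5.75 and 13.98 FPKM. The part of these cells in the Il4 reads was not tested.

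Il4ra (ENSMUSG00000030748, chromosome 7, 125552120 to 125579474 in GRCm38) encodes the receptor chain shared by IL-4 and IL-13. Its level was 10.8 FPKM in PDR and 12.0 FPKM in SKYD, and its difference was -0.15 (-0.24 to -0.05). The receptor chain was thus nearly level between the libraries, and its difference turned to 0.47 when centred on macrophage markers. Its partner for IL-13, Il13ra1, was at 24.3 FPKM in PDR and 20.0 FPKM in SKYD. The common gamma chain Il2rg, its partner for IL-4 alone, was at 70.8 and 60.6 FPKM. The decoy receptor gene Il13ra2 had 0 reads in PDR and 15 in SKYD. With a floor of 3 reads in place of the 0 it was 4.70-fold higher in SKYD, which leaves out the counting error of the 15 reads. None of the 3 tested genes of the ligand and receptor list, all receptor genes, passed 2-fold, also after centring on macrophage markers. Without a limit on FPKM 1 of 6 did, Il4, higher in SKYD. With TPM, FPKM rescaled to the same sum in each library, 1 of 4 did, again Il4. With TPM, Il4 met the limit only through its SKYD level and so had to lean that way.

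Between the receptor and its targets, 1 of 10 tested genes for kinases, STAT6 and feedback was more than 2-fold higher in SKYD and 0 in PDR. After centring on macrophage markers these counts were 0 in SKYD and 5 in PDR. With TPM, or with 0.1 or 0.01 added in place of 1, they were 2 in SKYD and 0 in PDR. Stat6 was at 22.1 FPKM in PDR and 15.0 FPKM in SKYD, a difference of 0.53 (0.44 to 0.62). Socs3, an inhibitor of cytokine signalling, was at 14.5 FPKM in PDR and 32.6 FPKM in SKYD. Ptpn6, a phosphatase that dampens receptor signals, was at 185 and 114 FPKM. The median difference over the 10 was 0.38. Il4ra and Stat6 thus differed by less than 2-fold, while Retnla, a well known target of this pathway, differed by more. Stat6 itself passed 2-fold, higher in PDR, after centring on macrophage markers.

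Egr2 (ENSMUSG00000037868, chromosome 10, 67535475 to 67542188) encodes a zinc finger transcription factor induced by IL-4. It was the least abundant of the 10 genes in both libraries, at 0.376 FPKM in PDR (30 reads) and 1.65 FPKM in SKYD (140 reads). The ratio of FPKM was 4.39-fold (2.94 to 6.74) in favour of SKYD, and the difference was -0.94 (-1.13 to -0.73). Its call depends on the pseudocount, since a pseudocount of 0.1 or 0.01 puts it past 2-fold. In the early growth response family, 0 of 4 tested genes passed 2-fold, 1 did, higher in PDR, after centring on macrophage markers, and 2 did, higher in SKYD, with a pseudocount of 0.1. Egr1, the most abundant of the EGR genes here, was at 6.98 FPKM in PDR and 8.81 FPKM in SKYD. The corepressor gene Nab1 was at 9.50 and 5.24 FPKM, and Nab2 at 1.75 and 3.61 FPKM.

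Among other transcription factors of alternative activation, 2 of 9 tested genes exceeded 2-fold toward SKYD and 0 toward PDR, and none passed 2-fold in either direction after centring on macrophage markers. Klf4, which acts together with STAT6, was at 0.977 FPKM in PDR and 3.005 FPKM in SKYD, and met the limit only through its SKYD level. Cebpb, a factor of myeloid cells, was the most abundant of the list at 194 FPKM in PDR and 360 FPKM in SKYD, a difference of -0.89 (-0.93 to -0.85). Bhlhe40 was at 12.9 and 15.0 FPKM. The median difference of the list was -0.34.

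Retnla (ENSMUSG00000061100, chromosome 16, 48842551 to 48844461) encodes the secreted protein RELMα, a hallmark of macrophages exposed to IL-4. Its level was 1939 FPKM in PDR and 9809 FPKM in SKYD. The level was 5.06-fold higher in SKYD (4.99 to 5.12), a difference of -2.34 (-2.36 to -2.32). This was the largest difference of the 10 genes, and only 1.45% of the tested genes had a lower one. It ranked 43 by FPKM among all genes in PDR and 5 in SKYD. Retnla took 0.118% of reads in PDR (0.117 to 0.120) and 0.578% in SKYD (0.575 to 0.580). No stretch of 100 bases of its transcripts occurs in the transcripts of another gene.

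The relatives of Retnla did not show a difference of that size. Retnlg, which lies 28159 bases from it and is typical of neutrophils, was at 172 FPKM in PDR and 215 FPKM in SKYD, a difference of -0.32 (-0.40 to -0.25). Retn, the resistin gene, had 17 and 21 reads, and Retnlb had none in either library. Retnla was thus the member of the resistin family past 2-fold, 1 of 2 tested, also after centring on macrophage markers. The ratio of Retnla to Retnlg within a library, which does not depend on library size, was 11.3 in PDR and 45.5 in SKYD.

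Macrophage markers were on balance also higher in SKYD, with a median difference of -0.61. Of 14, 11 were higher in SKYD and 3 in PDR, with 5 more than 2-fold higher in SKYD and 0 in PDR. Their differences varied widely, with Cd14 at -2.65 and Fcgr1, higher in PDR, at 0.54. Centring on the median of this list thus rests on genes that did not move together. Their levels summed to 24994 FPKM in PDR and 48295 FPKM in SKYD. The most abundant was Lyz2, the lysozyme gene, at 22217 and 41336 FPKM, and none was at 0. Relative to Lyz2, Retnla was at 0.0873 in PDR and 0.237 in SKYD, 2.72-fold higher in SKYD. Relative to the F4/80 gene Adgre1 it was at 22.2 in PDR and 105 in SKYD, 4.73-fold higher in SKYD. The marker Cd14, the 1 of the 14 past 4-fold, was at 149 FPKM in PDR and 938 FPKM in SKYD. It was 6.30-fold higher in SKYD, against 5.06-fold for Retnla, so relative to Cd14 Retnla was lower in SKYD. Both the size and the direction of the difference thus depend on the macrophage gene that Retnla is set against. Markers of large peritoneal macrophages, a resident type of body cavities, summed to 1055 FPKM in PDR and 3179 FPKM in SKYD, with 4 of 12 more than 2-fold higher in SKYD and 0 in PDR. The most abundant of these, Saa3, was at 456 and 1767 FPKM, and none was at 0. Eosinophil markers summed to 317 and 802 FPKM, with 2 of 4 tested more than 2-fold higher in SKYD and 0 in PDR, or 0 and 1 after centring on macrophage markers. Ear2 was the most abundant at 295 and 769 FPKM, and the defining gene Epx had 0 reads in both. Without Ear2 the eosinophil markers summed to 21.9 FPKM in PDR and 32.8 FPKM in SKYD. Il5ra, the 1 of the 4 higher in PDR, was at 4.32 and 1.94 FPKM. It passed 2-fold toward PDR with a pseudocount of 0.1 or 0.01. The part of these cell types in the Retnla difference was not tested.

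Chil3 (ENSMUSG00000040809, chromosome 3, 106147554 to 106167564) encodes Ym1, a secreted chitinase-like lectin that lacks enzyme activity. It went the other way, at 2264 FPKM in PDR and 1245 FPKM in SKYD. The level was 1.82-fold higher in PDR (1.80 to 1.84), a difference of 0.86 (0.85 to 0.88). Although Retnla and Chil3 are often used side by side as marks of alternative activation, they differed in opposite directions between these libraries. The ratio of Retnla to Chil3, which needs no scaling between libraries, was 0.857 in PDR and 7.88 in SKYD, a 9.20-fold change. Chil3 was the most abundant of the 10 genes in PDR, and Retnla in SKYD.

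Chil1, another chitinase-like gene, was at 5.06 FPKM in PDR and 2.16 FPKM in SKYD, and Chil5 had 34 and 37 reads. In this family 0 of 2 tested genes passed 2-fold, and both passed it, higher in PDR, after centring on macrophage markers. Chil1, with an FPKM ratio of 2.35 (1.93 to 2.86), also passed it with a pseudocount of 0.1 or 0.01. Of the distinct stretches of 100 bases in Chil3 transcripts, 4.93% also occur in transcripts of Chil4 or Gm6522, so a small part of its reads could have been assigned among these copies.

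Chil3 is also known as a product of neutrophil precursors and monocytes, and markers of both are given for that reason. Neutrophil markers summed to 4883 FPKM in PDR and 3730 FPKM in SKYD, with 4 of 11 more than 2-fold higher in PDR, 0 in SKYD and none at 0. Among the 4, Mpo met the limit only through its PDR level. The most abundant, S100a9, was at 2209 and 1677 FPKM. Elane, a protease of immature neutrophil granules, was at 34.1 and 5.81 FPKM. Ngp, a gene of neutrophil granules, was at 262 and 131 FPKM. Of the 11, 9 were higher in PDR and 2 in SKYD, with a median difference of 0.85. Mmp8, higher in SKYD, was at 66.9 and 98.9 FPKM. Monocyte markers summed to 3797 FPKM in PDR and 2578 FPKM in SKYD, with 1 of 8 tested more than 2-fold higher in PDR, 0 in SKYD and none at 0. The most abundant, Plac8, was at 1813 and 1349 FPKM, and Ly6c2 was at 1436 and 512 FPKM. Of the 8, 6 were higher in PDR and 2 in SKYD, with a median difference of 0.25. Hp, higher in SKYD, was at 362 and 537 FPKM. The ratio of Chil3 to Ngp within a library was 8.65 in PDR and 9.54 in SKYD, and that to Ly6c2 was 1.58 and 2.43. Relative to Adgre1, Chil3 was at 25.9 in PDR and 13.3 in SKYD. The direction of the Chil3 difference thus depends on the gene it is set against. The part of these cells in the Chil3 difference was not tested.

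Mrc1 (ENSMUSG00000026712, chromosome 2, 14229392 to 14332057) encodes the mannose receptor CD206, which takes up glycoproteins. The level was low, 1.597 FPKM in PDR (1.40 to 1.81) and 3.09 FPKM in SKYD (2.82 to 3.38). It was 1.93-fold higher in SKYD (1.65 to 2.27), a difference of -0.66 (-0.80 to -0.50), and after centring on macrophage markers the difference was -0.04, within counting error of 0. The interval of the ratio includes 2-fold. Its relatives were rarer still, with Ly75 at 0.401 FPKM in PDR and 0.238 in SKYD and Pla2r1 at 17 and 2 reads. In FPKM, Mrc1 lay far below Retnla, with which it is often paired as a marker.

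Mgl2 (ENSMUSG00000040950, chromosome 11, 70130329 to 70137550) encodes CD301b, a galactose-binding lectin of macrophages and dendritic cells. It was at 30.2 FPKM in PDR and 68.9 FPKM in SKYD. The level was 2.28-fold higher in SKYD (2.15 to 2.42), a difference of -1.16 (-1.25 to -1.08), which became -0.55 when centred on macrophage markers. Its neighbour Clec10a, which encodes CD301a and lies 18646 bases away, was at 9.96 FPKM in PDR and 32.4 FPKM in SKYD, a difference of -1.61 (-1.72 to -1.49). Both lectin genes of this pair were higher in SKYD. Asgr1, a liver lectin of the same group, was higher in PDR, at 10.01 and 2.89 FPKM. Of the 3 tested galactose lectins 2 were more than 2-fold higher in SKYD and 1 in PDR, and after centring on macrophage markers 0 and 1. Of the stretches of 100 bases in Mgl2 transcripts, 3.95% also occur in Clec10a.

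Dendritic cells express Mgl2 too. Their markers summed to 115 FPKM in PDR and 224 FPKM in SKYD, with 2 of 7 tested more than 2-fold higher in SKYD, 0 in PDR and none at 0. Of the 7, 5 were higher in SKYD, with a median difference of -0.60, and after centring on macrophage markers 2 passed 2-fold in each direction, with a median of 0.01. Cd209a, the most abundant on the mean of both libraries, was at 42.4 FPKM in PDR and 167 FPKM in SKYD and sets the direction of that sum, since the other markers summed to 73.1 FPKM in PDR and 57.3 FPKM in SKYD. Ccr7, the highest in PDR, was at 56.7 and 30.1 FPKM, and Dpp4 was at 9.81 and 6.91 FPKM. Siglech, a gene of plasmacytoid dendritic cells that met the limit only through its SKYD level, was at 0.491 and 11.4 FPKM. Relative to Cd209a, Mgl2 was at 0.713 in PDR and 0.413 in SKYD, so it was lower in SKYD on that scale. The part of dendritic cells in the Mgl2 difference was not tested.

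Pdcd1lg2 (ENSMUSG00000016498, chromosome 19, 29410919 to 29471157) encodes PD-L2, a ligand of the inhibitory receptor PD-1 of T cells. It was at 7.25 FPKM in PDR (6.42 to 8.15) and 2.19 FPKM in SKYD (1.76 to 2.69). The level was 3.31-fold higher in PDR (2.60 to 4.25), a difference of 1.37 (1.11 to 1.63). It was the only 1 of the 10 genes more than 2-fold higher in PDR. Cd274, which encodes the other ligand PD-L1 and lies 22823 bases away, was at 12.2 FPKM in PDR and 1.81 FPKM in SKYD, 6.73-fold higher in PDR (5.70 to 7.98). The neighbouring ligand genes therefore shared a direction. The receptor gene Pdcd1 was at 4.04 FPKM in PDR and 7.61 FPKM in SKYD, so 2 of 3 genes were past 2-fold in PDR and 0 in SKYD, also after centring on macrophage markers.

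B cells of body cavities also carry PD-L2. B cell markers summed to 5363 FPKM in PDR and 3299 FPKM in SKYD, with 5 of 6 tested more than 2-fold higher in PDR, 0 in SKYD and none at 0. The most abundant, the immunoglobulin gene Ighm, was at 3689 and 2917 FPKM. Ms4a1, which encodes CD20, was at 196 and 22.5 FPKM. Relative to Ms4a1, Pdcd1lg2 was at 0.0369 in PDR and 0.0971 in SKYD, and relative to Cd274 at 0.595 and 1.21. On both scales it was higher in SKYD. The part of B cells in the Pdcd1lg2 difference was not tested.

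Fn1 (ENSMUSG00000026193, chromosome 1, 71585520 to 71653200) encodes fibronectin, a matrix glycoprotein that binds integrins. It was at 9.21 FPKM in PDR (8.86 to 9.58) and 34.2 FPKM in SKYD (33.5 to 34.9). The level was 3.71-fold higher in SKYD (3.55 to 3.88), a difference of -1.78 (-1.84 to -1.73). Fn1 and Egr2 are among the genes that the study itself picked from these libraries, as are Il4, Klf4, Ccl17, Ccl24, Tgfb1, Il12b, Acod1, Saa3, Ear2, Dcn and some list genes not named here, so their direction is not independent evidence. Its receptor genes did not share this direction as a group, with a median difference of 0.47. Of 5 tested fibronectin receptors 1 was more than 2-fold higher in PDR and 0 in SKYD. After centring on macrophage markers 3 were past 2-fold toward PDR and 0 toward SKYD. Itgb7, an integrin chain, was at 149 FPKM in PDR and 54.3 FPKM in SKYD. Itgb1 was at 70.9 and 50.8 FPKM, and Sdc4 at 7.04 and 7.67 FPKM.

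Fibroblasts and hepatocytes make fibronectin as well. Fibroblast markers summed to 12.1 FPKM in PDR and 53.3 FPKM in SKYD, with 3 of 3 tested more than 2-fold higher in SKYD and none of the 8 at 0 in both. Of these 3, Mfap5 and Lum met the limit only through their SKYD level and so had to lean that way, and after centring on macrophage markers 2 of the 3 were past 2-fold. The most abundant, Dcn, was at 10.03 FPKM in PDR and 39.4 FPKM in SKYD. Mfap5 was at 0.866 and 8.04 FPKM. Large peritoneal macrophages, whose markers are given with Retnla, are a further known source. Hepatocyte markers summed to 2281 FPKM in PDR and 762 FPKM in SKYD, 11 of 12 passed 2-fold toward PDR and 0 toward SKYD, and none was at 0. The most abundant, Apoa2, an apolipoprotein gene, was at 793 FPKM in PDR and 294 FPKM in SKYD. The ratio of Fn1 to Dcn was 0.919 in PDR and 0.868 in SKYD. Relative to the large peritoneal macrophage marker Prg4 it was at 0.393 and 0.361. Relative to the hepatocyte marker Alb it was at 0.0357 and 0.470. The part of each of these cell types in the Fn1 difference was not tested.

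Tgm2 (ENSMUSG00000037820, chromosome 2, 158116402 to 158146436) encodes transglutaminase 2, which cross-links proteins. It was level between the libraries, at 10.2 FPKM in PDR (9.57 to 10.8) and 9.95 FPKM in SKYD (9.38 to 10.5). The ratio was 1.02-fold (0.939 to 1.11), and the difference 0.03 (-0.08 to 0.14) did not go beyond counting error. After centring on macrophage markers it was 0.64. Its relative F13a1, which encodes a clotting factor chain, was at 21.7 FPKM in PDR and 39.7 FPKM in SKYD, and Tgm1 was at 0.889 and 1.48 FPKM. None of the 3 tested transglutaminases passed 2-fold, also after centring on macrophage markers, and Tgm4, Tgm5, Tgm6 and Tgm7 had no reads. Transcripts of Tgm2 share 15.5% of their stretches of 100 bases with Rprd1b or Gm20412, which overlap it on the opposite strand. The strand used in counting is not given in the sources used here, so reads of such overlaps cannot be told apart. Rprd1b had 471 reads in PDR and 405 in SKYD, against 1100 and 1146 for Tgm2.

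Endothelial and smooth muscle cells of the aorta also express Tgm2. Endothelial markers summed to 4.997 FPKM in PDR and 3.51 FPKM in SKYD, and the most abundant, Pecam1, was at 3.89 and 2.57 FPKM. Smooth muscle markers summed to 3.15 FPKM in PDR and 2.92 FPKM in SKYD, Acta2, the highest in SKYD, was at 1.55 and 2.34 FPKM, Des, the highest in PDR, was at 1.599 and 0.586 FPKM, and Myh11, Tagln, Cnn1 and Myocd had 0 reads in both libraries. In both lists 0 of the tested genes, 1 of 8 and 2 of 6, passed 2-fold in either direction, and after centring on macrophage markers 1 gene of each list did, higher in PDR. Des met the limit only through its PDR level and so had to lean that way. With an FPKM ratio of 2.73 (1.98 to 3.80), Des also passed 2-fold with a pseudocount of 0.1 or 0.01. Erythroid markers, from red blood cells, summed to 20988 FPKM in PDR and 28334 FPKM in SKYD, with 0 of 6 tested past 2-fold, none at 0 and Hba-a1 the most abundant at 10807 and 15651 FPKM. Their part in the level of Tgm2 was not tested.

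**Figure D2:**
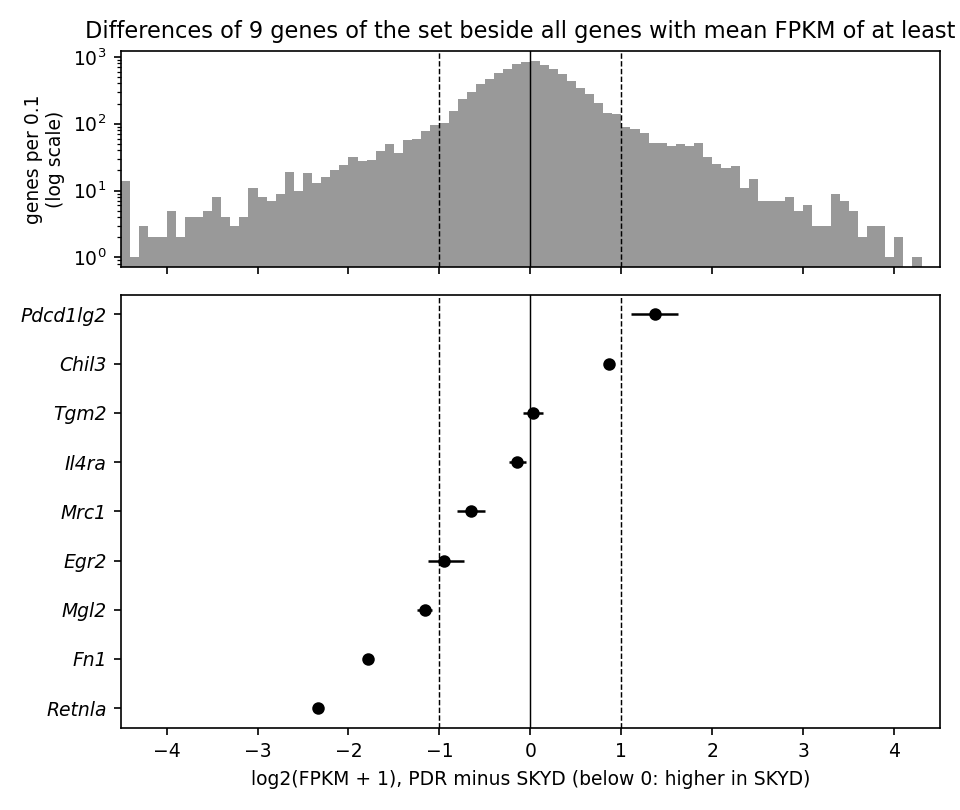
The upper panel counts all 10399 tested genes by their difference in log2(FPKM + 1), PDR minus SKYD, with values beyond the axis placed in the end bins. The lower panel gives 9 genes of the set with exact 95% counting intervals, dashed lines mark 2-fold, and Retnla at -2.34 and Pdcd1lg2 at 1.37 are the ends of the range.

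Ordered by FPKM, the 9 genes ran from Chil3 through Retnla, Mgl2, Il4ra, Tgm2, Fn1, Pdcd1lg2 and Mrc1 to Egr2 in PDR. In that library Il4ra and Tgm2, with a ratio of 1.06 (0.980 to 1.15), were the only neighbours that did not differ beyond counting error. The order in SKYD was Retnla, Chil3, Mgl2, Fn1, Il4ra, Tgm2, Mrc1, Pdcd1lg2 and Egr2. There the closest neighbours in units of their error were Pdcd1lg2 and Egr2, with a ratio of 1.33 (1.01 to 1.74). Fn1 stood below Il4ra and Tgm2 in PDR and above both in SKYD, and Mrc1 and Pdcd1lg2 exchanged places.

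Other genes of alternative activation, in a list of 25 that leaves out the 10, leaned to SKYD. Of the 21 tested, 9 were more than 2-fold higher in SKYD and 2 in PDR, with a median difference of -0.84, and after centring on macrophage markers 4 and 2 with a median of -0.23. Among the 9, Cd163 and Tgfb1 met the limit only through their SKYD level. Alox15, Cd209a and F13a1 are also on the large peritoneal macrophage, dendritic cell and monocyte marker lists, in that order, so these lists are not independent of this one. Ccl24, a chemokine that attracts eosinophils, was at 10.7 FPKM in PDR and 170 FPKM in SKYD, 15.9-fold higher in SKYD (14.2 to 17.8). Ccl17, a chemokine that attracts T cells, was at 17.97 and 224 FPKM. Both chemokine genes differed by more than Retnla did. Alox15, a lipoxygenase and the most abundant of the list, was at 236 FPKM in PDR and 683 FPKM in SKYD, and Fabp4, a fatty acid carrier, was at 23.0 and 99.5 FPKM. On the other side, Clec7a, the beta-glucan receptor, was at 134 FPKM in PDR and 57.0 FPKM in SKYD, and the cytokine gene Il10 was at 3.28 and 1.10 FPKM.

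Classical activation genes leaned to PDR, as Pdcd1lg2 and Chil3 did. Of the 10 tested, 5 passed 2-fold toward PDR and 0 toward SKYD, with a median difference of 0.99, and after centring on macrophage markers 7 and 0. Among the 5, Il12b met the limit only through its PDR level. The 1 tested gene higher in SKYD, Il6, was at 4.47 FPKM in PDR and 6.81 FPKM in SKYD. Acod1, the enzyme that makes itaconate, was at 28.9 FPKM in PDR and 1.01 FPKM in SKYD. The interferon-induced chemokine genes Cxcl10 and Cxcl9 were at 25.3 and 36.7 FPKM in PDR and at 1.55 and 6.70 FPKM in SKYD. The most abundant, Il1b, Irf5 and Cd86, differed less, with Il1b at 89.8 FPKM in PDR and 71.1 FPKM in SKYD, Irf5 at 73.0 and 53.0 FPKM, and Cd86 at 49.5 and 36.6 FPKM.

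**Figure D3:**
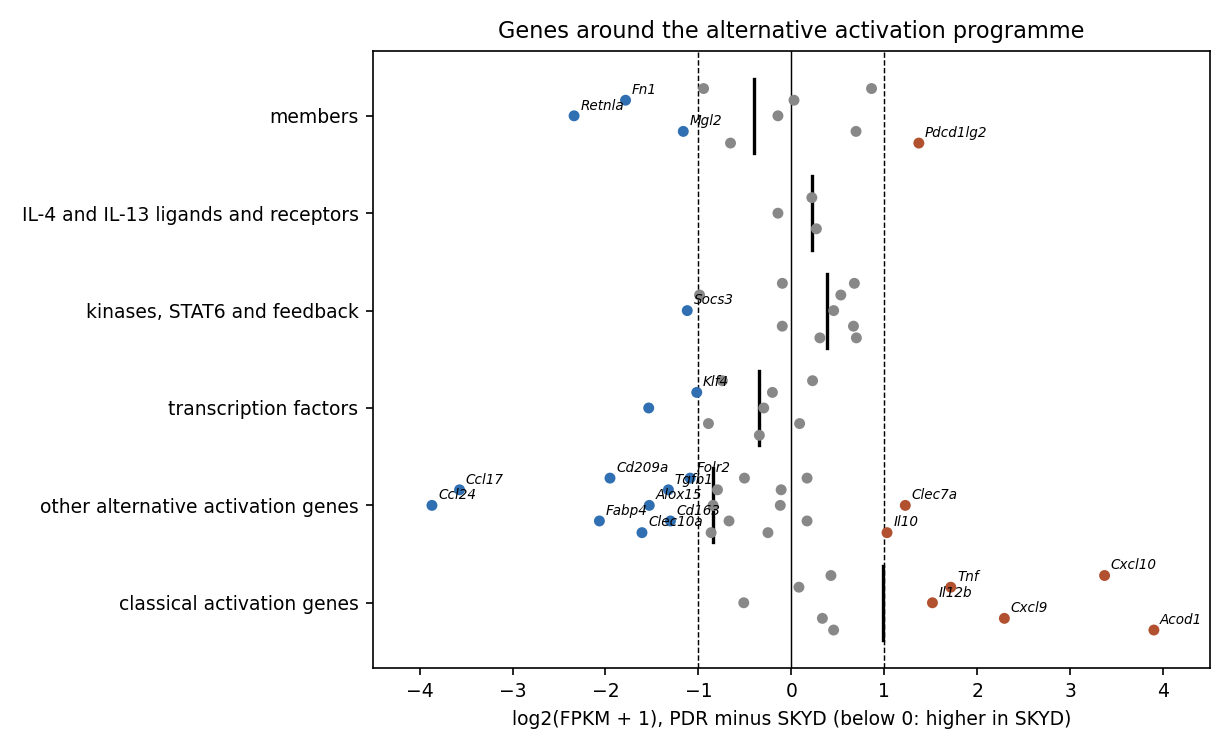
Difference in log2(FPKM + 1), PDR minus SKYD, of each tested gene of the pathway lists, with names beside most genes past 2-fold (dashed lines) and a bar at the median of each list. The median of the other alternative activation genes is -0.84 and that of the classical activation genes 0.99.

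**Figure D4:**
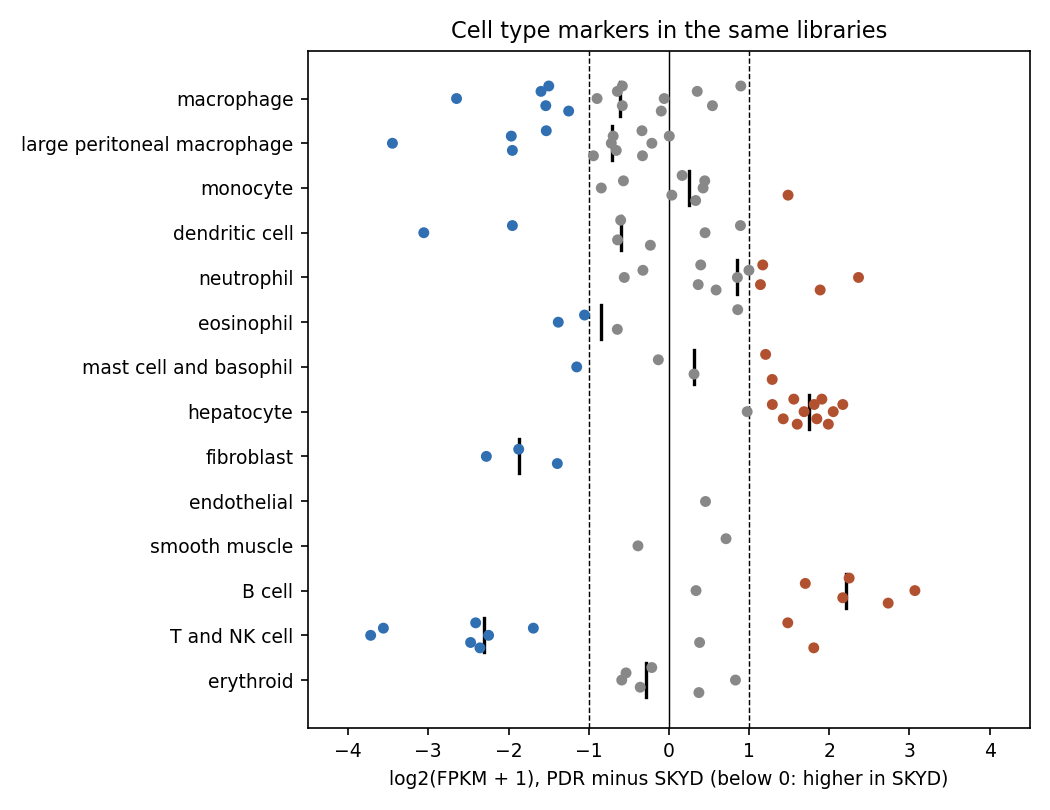
Difference in log2(FPKM + 1), PDR minus SKYD, of each tested cell type marker, with a bar at the median of lists with 3 or more tested genes and dashed lines at 2-fold. Hepatocyte, neutrophil and B cell markers lie mostly on the PDR side, and fibroblast, T cell and macrophage markers mostly on the SKYD side.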

How the data were processed

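RNA of aortic cells sorted as macrophages was sequenced in 1 library per group. Per the submitters' processing notes, reads were aligned with TopHat2 2.0.9 and Bowtie2 2.0.6 and counted with HTSeq 0.6.1, and the authors deposited FPKM per gene. These notes name mm9, but the positions in the table are those of a GENCODE annotation of GRCm38 for 98.3% of 54409 shared genes. Pdcd1lg2 is not among these, and its position is given as deposited.

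Reads were recovered as the product of FPKM and gene length over the value of 1 read, found from the low values of each library. Differences in log2(FPKM + 1) were taken for genes whose FPKM averaged 1 or more, and more than 2-fold was counted. Intervals were exact (Clopper-Pearson for the split of a gene's reads between libraries, Poisson for levels, binomial for shares), and 0 reads were set against a floor of 3. No p-value was computed.

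The genes and the gene lists were chosen with earlier results of these data known. Named are the genes of the set, the 3 most abundant of each other list and up to 3 past 2-fold each way; of marker lists, mainly the most abundant gene. Adgre1, Itgam, Apoe and the ratios within libraries were chosen after values were seen. Some genes that this rule names, and 1 list, are not reported here.

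Alternatives were pseudocounts of 0.1 and 0.01, a ratio of reads without pseudocount, no filter, a mean FPKM of at least 5, TPM, centring on the median, on a mean trimmed by 30% at each end or on macrophage markers, protein-coding genes only, and a 4-fold threshold. Library totals without antigen receptor and haemoglobin genes were added after seeing the data. The steps were tested on simulated data, with scipy 1.17.1 and numpy 2.4.6 under Python 3.11.15, pandas 2.3.3 for tables and matplotlib 3.10.9 for plots.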

Additional observations from a re-analysis of the deposited data

How the results depend on the processing

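Of the 3 genes more than 2-fold higher in SKYD, Retnla and Fn1 were past it under every alternative at 2-fold, and Mgl2 under all but centring on macrophage markers. At 4-fold 1 gene, Retnla, was left in SKYD and 0 in PDR, against 2.08% and 1.87% of all tested genes. Pdcd1lg2 was past 2-fold in PDR wherever it was tested. With a mean FPKM of at least 5 it was not tested, nor were Mrc1 and Egr2, so that the count in PDR was 0 and the median difference of the 7 genes -0.15, as fewer genes were compared. Centring on macrophage markers gave 3 genes in PDR and a median difference of 0.21, and turned the sign of Il4ra. Pseudocounts of 0.1 and 0.01 gave medians of -0.53 and -0.55, and with them, with reads without pseudocount and with TPM, Egr2 was also past 2-fold in SKYD, 4 genes in all. The shares of all tested genes past 2-fold in SKYD were then 9.71% and 10.1% with these pseudocounts, 9.25% with reads and 7.91% with TPM. Antigen receptor and haemoglobin genes took 9.73% of reads in PDR and 5.47% in SKYD. Leaving them out of the totals, an alternative chosen after seeing the data, changed no call among the 10 genes. In other lists it moved the count past 2-fold in PDR from 0 to 1 for chitinase-like genes and from 4 to 5 for neutrophil markers. The count rose from 11 to 12 for hepatocyte and from 5 to 6 for B cell markers. The added hepatocyte gene, Cps1 (2.58 FPKM in PDR and 0.821 in SKYD), met the limit only through its PDR level. So did the added B cell gene, Cr2 (1.79 and 0.128 FPKM). With this alternative 7 B cell markers were tested in place of 6, and 3 chitinase-like genes in place of 2. Centring on macrophage markers moved more marker calls. The counts in PDR rose from 0 to 2 for macrophage, from 1 to 3 for monocyte, from 0 to 2 for dendritic cell, from 4 to 8 for neutrophil, from 11 to 12 for hepatocyte, and from 0 to 1 for eosinophil, endothelial, smooth muscle and erythroid markers. Those in SKYD fell from 5 to 1 for macrophage, from 4 to 3 for large peritoneal macrophage, from 2 to 0 for eosinophil, from 1 to 0 for mast cell and basophil and from 3 to 2 for fibroblast markers. No paired analysis was possible because each group had 1 library. Depth limits the values of Egr2, Il4 and Il13, and no alternative replaces replicate pools.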
